A study of Homo sapiens with 18 samples.

Results

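RNA-seq of BE(2)-m17 cells, a human neuroblastoma line, gave 43 protein-coding genes whose level was higher in ABCC1-overexpressing cells than in empty vector control cells in each of 3 experiments. They were chosen by their measured values, from CPM (the reads of a gene per 1000000 reads on Ensembl genes), which were not divided by gene length. A gene was taken if its mean over the Puro libraries was at least 5 CPM and if log2((mean ABCC1 CPM + 0.5)/(mean Puro CPM + 0.5)), called the log2 ratio here, was at least 0.5 in RNA1, in RNA2 and in RNA3. Of 57905 Ensembl rows, 19263 were protein coding, 12635 of these met the 5 CPM floor, and 46 of those passed in all 3 experiments. ARC, CSRNP1 and TFRC also passed and were set aside, which left the 43 members described here. Since the log2 ratios chose the members, the ratios and the overlap of the groups are given as a description, with no test.

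All BE(2)-m17 cells sequenced here carried the transposon pSBbi-Hyg-APP, which expresses human APP, and was made from this parent line by a further transfection. Puro cells received the empty vector pSBbi-Pur, and ABCC1 cells received pSBbi-Pur-ABCC1, which holds codon-optimized ABCC1, an exporter of organic anions. Both were transfected together with the transposase SB100X and selected with puromycin as stable lines. The study's account of its repeats names cryopreserved and newly transfected cells, and the labels do not say which of RNA2 and RNA3 was which. The experiments RNA1, RNA2 and RNA3 each had 3 Puro and 3 ABCC1 libraries, 18 in all, made from wells plated with 14000000 cells and lysed on day 4. The methods describe weekly plating, and the labels only number the replicates, so the p-values below cover the spread between platings of these lines and not between independent lines. RNA1 used an mRNA kit and RNA2 and RNA3 used a total RNA kit, so levels are compared within an experiment unless stated.

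Assigned read pairs per library lay between 8866994 and 57937653. Reads on the codon-optimized ABCC1 sequence numbered 0 to 15 in the 9 Puro libraries and 51035 to 594404 in the 9 ABCC1 libraries, which matched the labels. Of 12 adrenergic neuroblastoma markers, 11 or 12 stood at 5 CPM or more in every group.

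The members have varied known functions. They include transcription factors that cells switch on within minutes of a growth factor, calcium or stress signal, the immediate early genes EGR1 and JUNB, and targets of slower developmental signals such as the Notch target HEY1. Others process RNA, attach ubiquitin, sulfate the sugar chains of proteoglycans, or hold together the cytoskeleton. By textbook role, 12 members act in transcription, 5 in RNA processing or translation, 1 in DNA repair, 3 in ubiquitin transfer, 10 in signalling and 8 at the cell surface, in the matrix or in the cytoskeleton, while 4 are little described. These role groups were drawn up after the members were known, and no enrichment was tested.

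**Figure D1:**
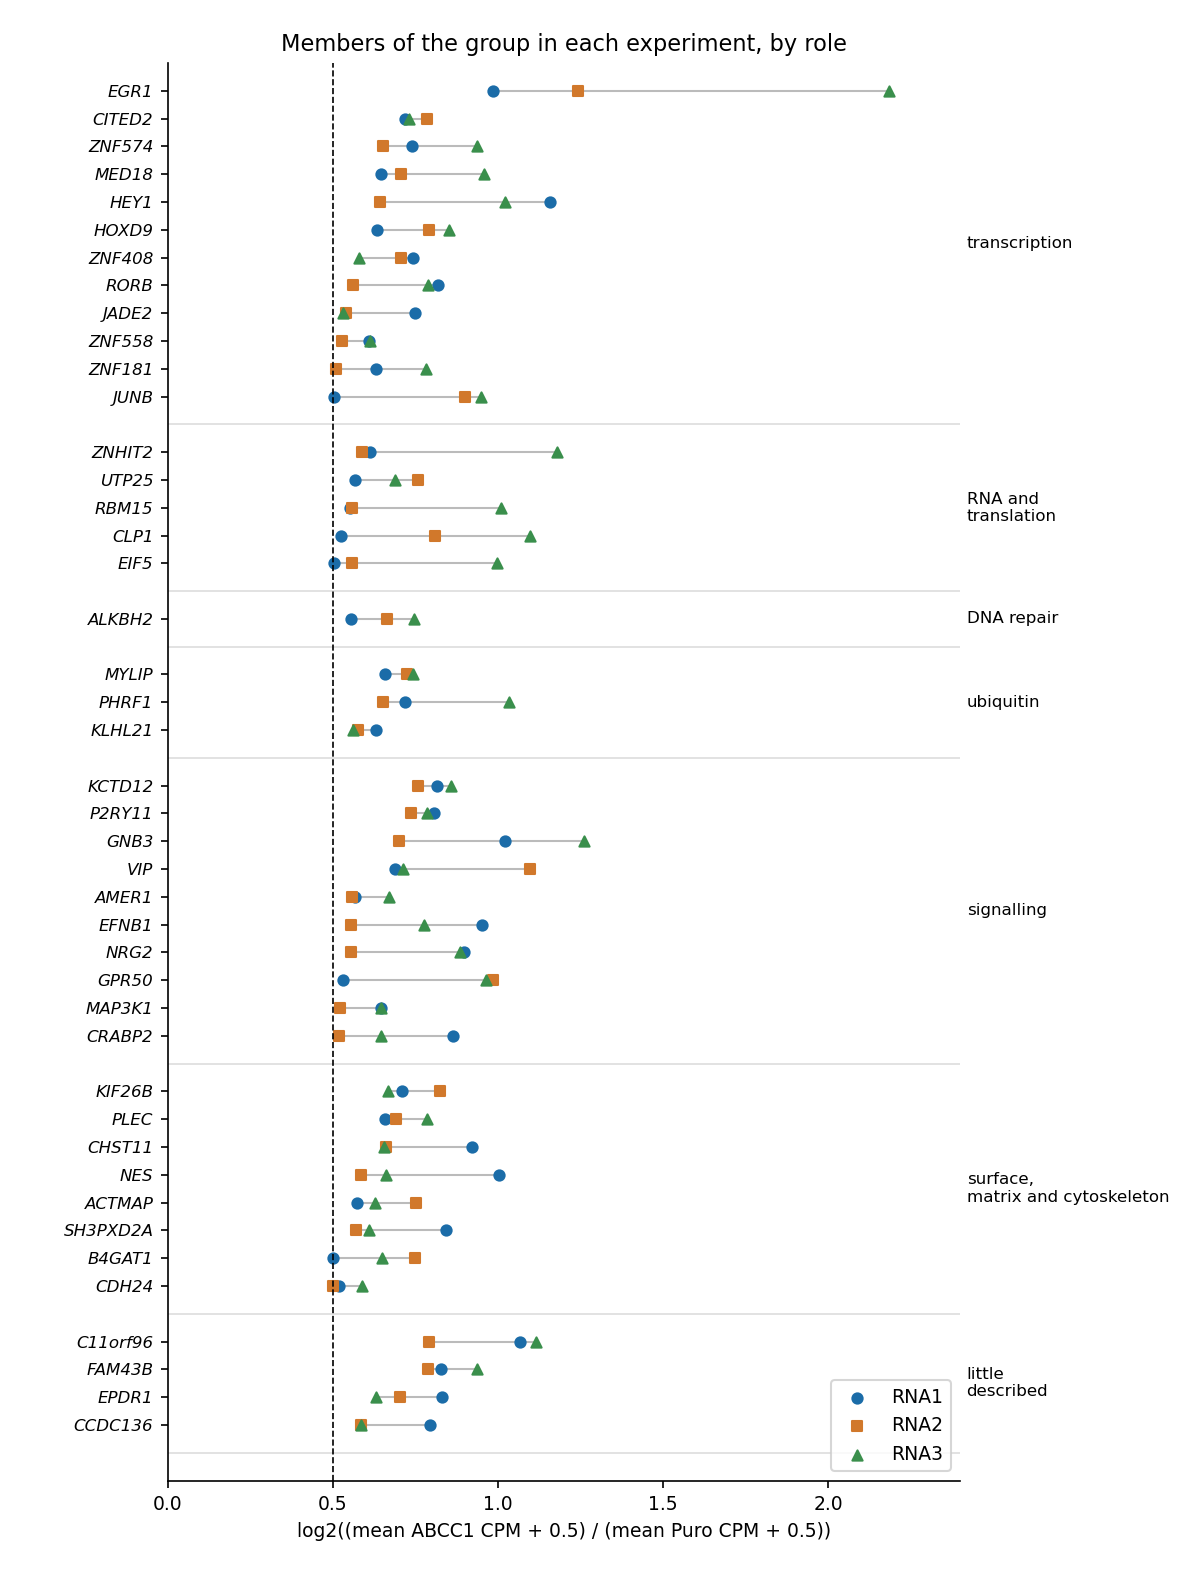
Log2 ratio of ABCC1 to Puro cells (horizontal axis, on CPM with 0.5 added) for each of the 43 members, 1 row per gene and 1 point per experiment, sorted by role. The dashed line is the threshold of 0.5 that chose the genes, and EGR1 in RNA3 is the point farthest to the right, at 2.19.

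The median log2 ratio of the members was 0.71 in RNA1, 0.66 in RNA2 and 0.77 in RNA3. Over all 12635 genes at the floor, the medians were 0.03, -0.01 and -0.06. A ratio of at least 0.5 was found for 439 of these genes (3.47%) in RNA1, 229 (1.81%) in RNA2 and 497 (3.93%) in RNA3. The lowest of a member's 3 ratios fell in RNA2 for 20 members, in RNA1 for 16 and in RNA3 for 7. The highest fell in RNA3 for 21 members, in RNA1 for 15 and in RNA2 for 7. This order depended on the scaling. In the TMM-scaled edgeR fits, which put the median of the floor genes at 0.00, 0.19 and 0.06 in RNA1, RNA2 and RNA3, the member medians were 0.68, 0.89 and 0.91. There the lowest log2FC fell in RNA1 for 29 members, in RNA2 for 7 and in RNA3 for 7, and the highest in RNA1 for 4, in RNA2 for 17 and in RNA3 for 22. The difference between a member's highest and lowest ratio had a median of 0.26, and it ran from 0.07 for CITED2 to 1.20 for EGR1. The ratios given here include background reads, which were more frequent in RNA2 and RNA3. With that background subtracted (an alternative chosen after seeing the data), the medians of the members were 0.71, 0.85 and 1.13. The ratio then grew by over 1.5 times for 0 members in RNA1, for 4 in RNA2 (HEY1, ZNF408, KLHL21 and AMER1) and for 14 in RNA3 (P2RY11, GNB3, VIP, CHST11, EPDR1, ZNF408, RORB, KLHL21, AMER1, EFNB1, JADE2, GPR50, ZNF558 and ZNF181).

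Transcription was the largest role group, with 5 C2H2 zinc finger proteins (EGR1, ZNF574, ZNF408, ZNF558 and ZNF181), 4 other DNA-binding factors (JUNB, HEY1, HOXD9 and RORB) and 3 cofactors (CITED2, MED18 and JADE2). EGR1 (chr5:137801179-137805004, GRCh37) encodes an immediate early zinc finger factor. In RNA1 it stood at 190.1, 165 and 136 CPM in the Puro libraries and at 309, 294 and 370.2 CPM in the ABCC1 libraries. The RNA2 values were 54.8, 26.9 and 28.8 CPM in Puro against 82.8, 68.1 and 113 CPM in ABCC1. The RNA3 values were 42.5, 46.6 and 32.7 CPM in Puro against 188, 181 and 192 CPM in ABCC1. Every ABCC1 library thus lay above every Puro library in each experiment, with log2 ratios of 0.98, 1.24 and 2.19. JUNB, a subunit of the AP-1 factor and the other immediate early gene among the members, is named here after its values were seen. It had log2 ratios of 0.50, 0.90 and 0.95, the RNA1 value lying just above the threshold at 86.7 ± 13.3 CPM in Puro and 123 ± 7.69 CPM in ABCC1 (SD, n = 3).

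HEY1, a repressor that Notch signalling induces, showed the largest ratio of any member in RNA1. Its Puro libraries held 25, 24.3 and 24.2 CPM and its ABCC1 libraries 55.2, 54.4 and 56.2 CPM in that experiment, a log2 ratio of 1.16. The corresponding means were 7.13 ± 0.676 and 11.4 ± 0.41 CPM in RNA2 and 13.8 ± 0.0722 and 28.5 ± 1.45 CPM in RNA3, for ratios of 0.64 and 1.02. CITED2, which binds the coactivators CBP and p300, was the most even member over the experiments by the log2 ratio, at 0.72, 0.79 and 0.73. It was less even in the edgeR fits, at 0.70, 1.03 and 0.87, and with background subtracted, at 0.72, 0.88 and 0.94. Its levels were 28.7 ± 2.38 against 47.6 ± 8.25 CPM in RNA1, 14.9 ± 4.16 against 26.0 ± 3.75 CPM in RNA2 and 15.3 ± 0.625 against 25.7 ± 1.23 CPM in RNA3. MED18, a subunit of the Mediator complex that links factors to RNA polymerase II, had ratios of 0.65, 0.71 and 0.96, and the homeobox factor HOXD9 had 0.63, 0.79 and 0.85. ZNF574 stood at 0.74, 0.65 and 0.94 and ZNF408 at 0.74, 0.71 and 0.58, both zinc finger proteins.

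CLP1 (chr11:57416465-57429340) encodes an RNA kinase that takes part in tRNA splicing and in cleavage at the 3′ end of pre-mRNA. In RNA1 its Puro libraries held 28.6, 30.3 and 28.7 CPM and its ABCC1 libraries 41.6, 42.9 and 42.0 CPM. The RNA2 libraries held 13.2, 11.4 and 11 CPM in Puro and 20.6, 21.6 and 21.4 CPM in ABCC1, and the RNA3 libraries 14, 13.4 and 9.17 CPM in Puro and 29.2, 24 and 26.8 CPM in ABCC1. The groups did not overlap in any experiment, and the log2 ratio was 0.52, 0.81 and 1.10. UTP25, a factor of small ribosomal subunit assembly, had 0.57, 0.76 and 0.69, and ZNHIT2, which takes part in the assembly of the U5 splicing particle, had 0.61, 0.59 and 1.18. EIF5, the GTPase-activating factor of start codon recognition, rested close to the threshold in RNA1 and not in RNA3. Its RNA1 means were 324 ± 15.8 CPM in Puro and 459.6 ± 30.1 CPM in ABCC1, a ratio of 0.50, and its RNA3 means were 119.7 ± 21.1 and 239 ± 2.98 CPM, a ratio of 1.00. The group of 5 RNA and translation genes had medians of 0.55, 0.59 and 1.01 in RNA1, RNA2 and RNA3.

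ALKBH2 (chr12:109525996-109531436), a dioxygenase that removes alkyl groups from DNA bases, was the 1 gene placed in the DNA repair role group. Its RNA1 values were 70.6, 62.1 and 62.0 CPM in Puro and 96.7, 96.9 and 93.2 CPM in ABCC1. RNA2 gave 38.2, 32.0 and 28.1 CPM against 45.7, 52.3 and 58.3 CPM, and RNA3 gave 31.6, 28.1 and 26.2 CPM against 46.5, 50.8 and 47.8 CPM. All ABCC1 libraries were above all Puro libraries of their experiment, with log2 ratios of 0.56, 0.66 and 0.75. The 3 genes of ubiquitin transfer were MYLIP, an E3 ligase that marks the LDL receptor for degradation (0.66, 0.72 and 0.74), PHRF1, a PHD and RING finger protein (0.72, 0.65 and 1.03), and KLHL21, an adaptor of the CUL3 ligase.

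Among the signalling genes, 4 belong to G protein-coupled receptor systems. KCTD12 (chr13:77454312-77460540) encodes an auxiliary subunit of the GABA-B receptor. The RNA1 libraries held 125, 122 and 123 CPM in Puro and 219, 225 and 208 CPM in ABCC1. In RNA2 the values were 76.8, 85.8 and 67.2 CPM against 135, 129 and 125 CPM, and in RNA3 they were 53.4, 67.7 and 54.9 CPM against 88.5, 112 and 119.8 CPM. Again no ABCC1 library fell to the Puro range, and the ratios of 0.82, 0.76 and 0.86 were nearly even. P2RY11, a receptor for extracellular ATP, had ratios of 0.81, 0.73 and 0.79 at 5.85 to 6.67 CPM in the Puro means. GNB3, a G protein beta subunit, had 1.02, 0.70 and 1.26. Its RNA2 groups overlapped, since the Puro libraries held 18.5, 9.79 and 7.24 CPM and the ABCC1 libraries 22.7, 14.8 and 21.1 CPM.

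VIP (chr6:153071933-153080900), a neuropeptide that neuroblastoma cells can secrete, was a ligand among the signalling members. It stood at 28.6, 32.3 and 34.2 CPM in the RNA1 Puro libraries and at 52.7, 51.9 and 49.5 CPM in the ABCC1 libraries. RNA2 gave 21.9, 13.7 and 15.9 CPM against 48.9, 32.4 and 30.4 CPM. In RNA3 the level was lower in both lines, at 5.77, 4.76 and 8.72 CPM against 11.2, 11.6 and 9.68 CPM, and the groups still did not overlap. The log2 ratios were 0.69, 1.10 and 0.71.

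**Figure D2:**
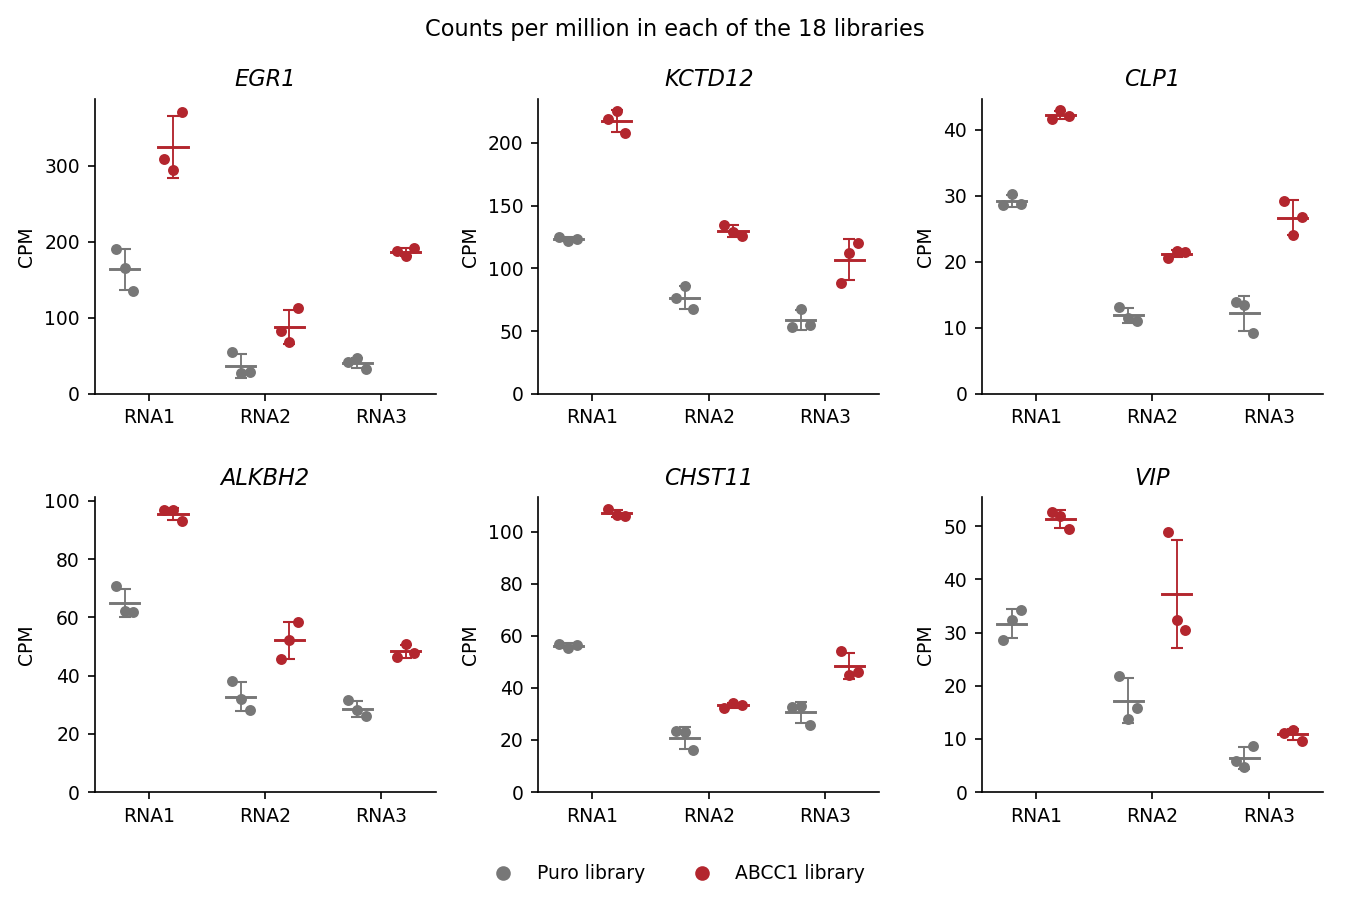
CPM (vertical axis, from 0) of EGR1, KCTD12, CLP1, ALKBH2, CHST11 and VIP in each of the 18 libraries, with Puro in grey and ABCC1 in red, by experiment. Points are libraries, horizontal bars are means and error bars are SD over 3 libraries, and in each panel every ABCC1 point lies above every Puro point of the same experiment.

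At the cell surface and in the matrix, CHST11 (chr12:104849073-105155792) encodes the sulfotransferase that adds 4-O-sulfate to chondroitin chains. Its RNA1 levels were 57.0, 55.2 and 56.5 CPM in Puro and 109, 106 and 106 CPM in ABCC1. The RNA2 levels were 23.5, 23.1 and 16 CPM against 32.3, 34.2 and 33.4 CPM, and the RNA3 levels 32.8, 33.1 and 25.7 CPM against 54.1, 45.1 and 46.0 CPM. With ratios of 0.92, 0.66 and 0.65 and groups that did not overlap, RNA1 gave the largest value. With background reads subtracted, the ratios were 0.92, 0.88 and 1.02, and the largest was in RNA3. B4GAT1, which builds the sugar chain of dystroglycan, had the lowest ratio of all members in RNA1, at 0.50 from 29.5 ± 2.64 CPM in Puro and 41.9 ± 2.07 CPM in ABCC1. CDH24, a type II cadherin, overlapped between the lines in RNA2, with 144, 91.3 and 72.2 CPM in Puro and 165, 139.8 and 130.3 CPM in ABCC1.

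Cytoskeletal members numbered 5. They were PLEC, the linker protein plectin, NES, the intermediate filament nestin of neural progenitors, KIF26B, a kinesin family protein, SH3PXD2A, a scaffold of podosomes, and ACTMAP, a protease that trims the end of actin. PLEC had ratios of 0.66, 0.69 and 0.78, and NES had 1.00, 0.59 and 0.66. KIF26B rested on deep counts, at 190.5 ± 11.3 against 312 ± 9.87 CPM in RNA1, 109 ± 18.2 against 193 ± 9.93 CPM in RNA2 and 143 ± 13.1 against 227 ± 4.03 CPM in RNA3. SH3PXD2A gave 0.84, 0.57 and 0.61, and ACTMAP gave 0.57, 0.75 and 0.63. The little described genes were C11orf96, FAM43B, EPDR1 and CCDC136, and C11orf96 had 1.07, 0.79 and 1.12. FAM43B stood at 0.83, 0.79 and 0.94, EPDR1 at 0.83, 0.70 and 0.63 and CCDC136 at 0.79, 0.59 and 0.59.

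The remaining 13 members, RORB, KLHL21, AMER1, EFNB1, NRG2, RBM15, JADE2, GPR50, ZNF558, MAP3K1, CRABP2, ZNF181 and JUNB, lay outside the rule for genes described with values, and those given values were picked after their values were seen. Their ratios ran from 0.50 to 0.95 in RNA1, from 0.51 to 0.99 in RNA2 and from 0.53 to 1.01 in RNA3. They include the retinoic acid carrier CRABP2, the ErbB receptor ligand NRG2, the Eph receptor ligand EFNB1, the kinase MAP3K1 and the RNA methylation cofactor RBM15. GPR50, an orphan relative of the melatonin receptors, met the floor through RNA1 only, with Puro means of 23.3 CPM in RNA1, 4.81 CPM in RNA2 and 4.29 CPM in RNA3.

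CDH24 passed the threshold in RNA2 by less than the rounding of these values, at 0.50, and EIF5 and B4GAT1 passed in RNA1 at 0.50. NXT1, a factor of mRNA export, missed in RNA2 at 0.499, YDJC missed in RNA1 at 0.494, and NAB2, a corepressor of EGR1, missed in RNA1 at 0.490 with 0.53 in RNA2 and 1.00 in RNA3. ZBTB24, a zinc finger factor mutated in the ICF immunodeficiency syndrome, is not a member. It missed in RNA1 at 0.486 and passed in RNA2 at 0.71 and in RNA3 at 0.78.

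Promoters of 33 of the 43 members were found in a RefSeq table of 250 bases before to 50 bases after the start of each gene, on GRCh38.p14. They were searched on both strands for the CCAAT box, for the TATA box as TATAAA, for the GC box as GGGCGG, for the cAMP response element as TGACGTCA, for the E-box as CACGTG, for the AP-1 site as TGANTCA, for the antioxidant response element as TGACNNNGC, for the ETS site as CCGGAAG, for the NRF1 site as GCATGCGC and for the YY1 site as AAGATGGC, and for the CArG box, the core of the site of serum response factor, added after the EGR1 values were seen. Matches of different motifs may share bases. The 250 bases before the start are shown for the 4 example genes that were members and for EGR1, since these members lead the account above. Capitals mark matches to the motifs searched, and bases are counted back from the start of the gene.

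CLP1: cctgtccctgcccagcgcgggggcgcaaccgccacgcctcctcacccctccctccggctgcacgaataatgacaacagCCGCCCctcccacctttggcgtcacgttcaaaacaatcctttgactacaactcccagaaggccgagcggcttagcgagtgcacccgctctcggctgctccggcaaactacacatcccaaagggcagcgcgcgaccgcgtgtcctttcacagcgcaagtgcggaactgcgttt
KCTD12: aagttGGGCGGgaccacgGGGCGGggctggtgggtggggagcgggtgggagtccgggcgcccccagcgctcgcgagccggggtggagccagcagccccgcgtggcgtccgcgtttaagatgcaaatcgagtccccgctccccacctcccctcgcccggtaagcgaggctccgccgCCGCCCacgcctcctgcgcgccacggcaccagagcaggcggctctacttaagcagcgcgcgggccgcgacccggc
ALKBH2: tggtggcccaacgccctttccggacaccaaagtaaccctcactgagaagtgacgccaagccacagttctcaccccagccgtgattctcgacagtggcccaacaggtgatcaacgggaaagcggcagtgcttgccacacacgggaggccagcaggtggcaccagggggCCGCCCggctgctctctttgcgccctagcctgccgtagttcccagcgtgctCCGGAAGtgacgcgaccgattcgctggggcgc
CHST11: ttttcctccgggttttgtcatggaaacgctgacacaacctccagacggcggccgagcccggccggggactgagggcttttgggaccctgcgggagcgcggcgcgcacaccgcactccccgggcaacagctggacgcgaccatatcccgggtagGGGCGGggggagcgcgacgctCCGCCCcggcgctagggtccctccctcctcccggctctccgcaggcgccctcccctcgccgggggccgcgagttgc
EGR1: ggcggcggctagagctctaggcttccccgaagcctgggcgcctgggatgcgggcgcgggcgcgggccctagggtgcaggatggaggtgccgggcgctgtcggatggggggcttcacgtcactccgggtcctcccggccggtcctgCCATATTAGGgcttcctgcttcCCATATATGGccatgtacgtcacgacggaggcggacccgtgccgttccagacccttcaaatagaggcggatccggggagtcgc

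These windows lie at chr11:57657512-57657761 on the plus strand for CLP1, chr13:76886406-76886655 on the minus strand for KCTD12, chr12:109093473-109093722 on the minus strand for ALKBH2, chr12:104456698-104456947 on the plus strand for CHST11 and chr5:138465229-138465478 on the plus strand for EGR1. The GC box GGGCGG or its complement was matched in CLP1, KCTD12, ALKBH2 and CHST11, and CCGGAAG, the core of ETS factor sites, 32 bases before the start of ALKBH2. EGR1 held 2 CArG boxes, beginning 105 and 83 bases before its start, and was the 1 member of 33 (3.03%) with that motif, against 1.29% of all 35116 promoters and 1.07% of the 10292 promoters of genes at the floor. GGGCGG was in 23 of 33 member promoters (69.7%), 45% of all promoters and 69.2% of those of floor genes. CCGGAAG was in 9 of 33 (27.3%), namely PHRF1, MED18, ZNHIT2, CCDC136, ZNF408, ACTMAP, ALKBH2, ZNF558 and ZNF181, against 10.3% of all promoters and 18.7% of those of floor genes. CACGTG was in 5 (15.2%, against 7.26% and 10.1%) and CCAAT in 12 (36.4%, against 34.6% and 36.5%). A further 5 (15.2%) held TGACNNNGC (13.3% and 14.9%), 3 (9.09%) held TATAAA (11.5% and 5.81%), and 1 each (3.03%) held TGACGTCA (1.85% and 3.32%), TGANTCA (7.71% and 4.14%), GCATGCGC (3.05% and 5.31%) and AAGATGGC (2.89% and 5.27%). A match is a description of the letters, and the median GC content of the member windows, 63.7%, was near the 65.0% of floor genes.

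The median exon number of the members was lower than that of other genes, a feature that the rule did not use. The main transcript of a member had a median of 4 exons, against 10 for the 12628 floor genes with a value in GENCODE. Transcripts of at most 2 exons made up 13 of 43 members (30.2%) and 719 of 12628 genes (5.69%). Those of 1 exon were C11orf96, FAM43B, KCTD12, ZNHIT2 and JUNB, 11.6% of members against 1.92% of genes, and EGR1, P2RY11, CITED2, ZNF574, HOXD9, AMER1, GPR50 and B4GAT1 had 2. Transcript length was near that of the other genes, at medians of 3138 and 3442.5 bases. The GC content of the transcript had medians of 55.4% and 49.2%, and 15 members (34.9%) were at 60% or more against 15.7% of genes. These shares are given with no test, as the exon number itself moved with the ratio in some experiments. With the members left out, the median log2 ratio of genes with 2 exons was 0.06 in RNA1, 0.05 in RNA2 and 0.10 in RNA3, and that of genes with over 20 exons was 0.02, -0.03 and -0.11. For transcripts of 58.7 to 74.5% GC, the highest class, the medians were 0.09, -0.03 and -0.10. For those of 31.8 to 41.4% GC, the lowest class, they were -0.02, 0.00 and -0.01. The part of exon number and GC content in the choice of members was not tested.

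**Figure D3:**
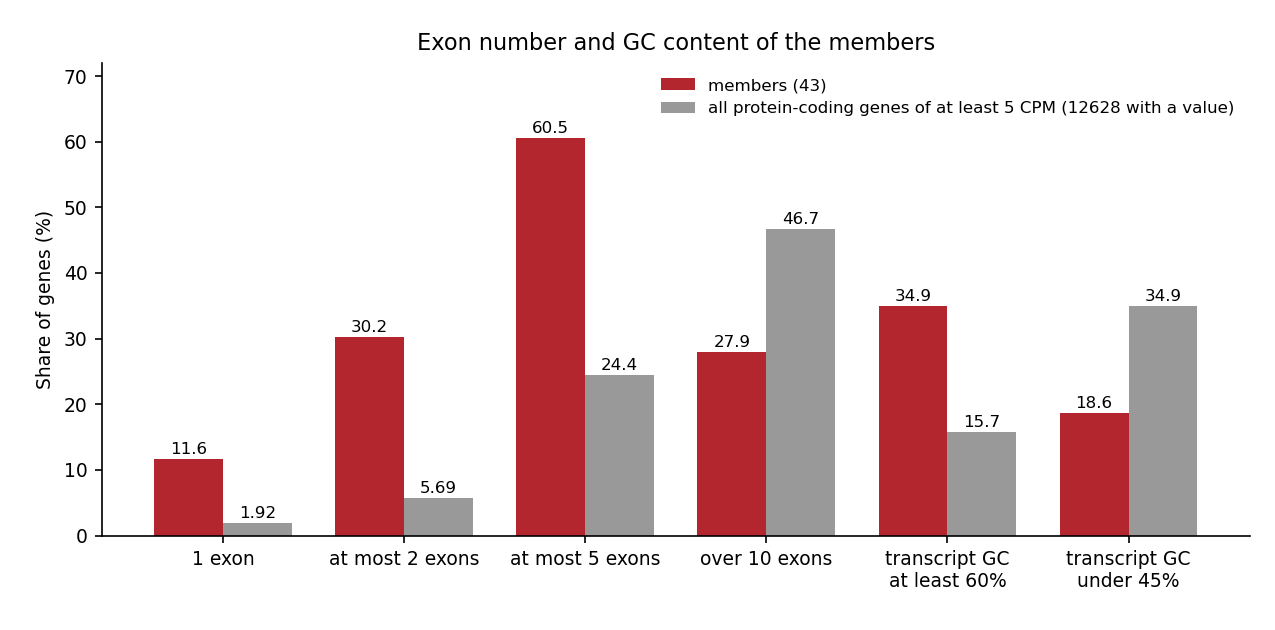
Share of genes (%, vertical axis) by the exon number and GC content of the main transcript, for the 43 members in red and all protein-coding genes of at least 5 CPM in grey. Bars start at 0 and show that 30.2% of members but 5.69% of all genes had at most 2 exons.

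The members were spread over 14 chromosomes, with 8 on chromosome 1 and 6 each on chromosomes 11 and 19. Only NES and CRABP2 lay within 1000000 bases of each other, 22209 bases apart on chromosome 1 (GRCh37). Read pairs were counted without regard to strand, so reads of an overlapping gene could not be told apart from those of a member. P2RY11 shared 59.2% of its exon bases, mostly with PPAN and the PPAN-P2RY11 read-through gene, so its value is uncertain. The next were C11orf96 with 25.5%, GNB3 with 16%, JUNB with 14.3%, ZNHIT2 with 13.5%, ZNF574 with 11.6% and CLP1 with 9.60%.

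Every ABCC1 library lay above every Puro library for 43 of 43 members in RNA1, where 30.2% of floor genes did so, for 40 in RNA2 (11.6% of floor genes) and for 43 in RNA3 (16.2%). The overlapping genes in RNA2 were GNB3, EFNB1 and CDH24. In edgeR's quasi-likelihood test at an adjusted p of at most 0.05, 43 members were called higher in RNA1, where 17.9% of the 16995 genes tested were, 41 in RNA2 (1.25% of 34091) and 43 in RNA3 (2.03% of 36509). EFNB1 and CDH24 were not called in RNA2. Fitted on the 12635 floor genes alone, a setting added after seeing the data, 2488 genes were called higher in RNA1, 180 in RNA2 and 1425 in RNA3. Of the members, 43, 34 and 43 were called higher there. These counts follow from the choice of the members on the same contrasts. The RNA2 count of 41 rested on single libraries: it was 1 without RNA2 Puro replicate 3, 8 without RNA2 ABCC1 replicate 2 and 25 without RNA2 ABCC1 replicate 1. All genes called higher in RNA2 fell as well, from 425 to 3, 17 and 109 in the same fits.

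The libraries of a group did not contribute evenly. RNA2 Puro replicate 3 was the lowest of its group for 31 of 43 members, and for 50.8% of floor genes. Without it the rule found 27 genes, 26 of them members, since the RNA2 Puro means then rose. In RNA1 the lowest Puro library was replicate 3 for 28 members, against 30.8% of floor genes, and the highest ABCC1 library was replicate 3 for 26 members, against 38.9%. That ABCC1 library held 370.2 CPM of EGR1, 123 CPM of C11orf96, 57.1 CPM of CITED2, 97 CPM of ZNF574 and 60.5 CPM of ZNHIT2, each above the other replicates, while NES was lowest there at 96 CPM. Leaving out each of the 18 libraries in turn, 19 members stayed in every time, EGR1, KCTD12, CLP1, ALKBH2 and CHST11 among them, and 24 dropped out at least once. With medians of the 3 libraries in place of means, the rule kept 31 members and lost 12, which were ACTMAP, B4GAT1, CCDC136, CDH24, CHST11, GPR50, JADE2, KLHL21, MAP3K1, SH3PXD2A, ZNF181 and ZNHIT2. The coefficient of variation within a group had medians over the members of 4.97% and 5.81% in RNA1 Puro and ABCC1, 15.5% and 12.3% in RNA2 and 9.98% and 8.34% in RNA3.

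Background reads differed between the lines in level. They were measured as CPM per kilobase on 372 olfactory receptor genes, which neuroblastoma cells are taken not to express. The mean was 0.626 ± 0.129 in RNA2 Puro and 0.290 ± 0.153 in RNA2 ABCC1, and 1.65 ± 0.241 in RNA3 Puro and 1.20 ± 0.249 in RNA3 ABCC1 (SD, n = 3), against 0.00485 in RNA1 Puro and 0.00411 in RNA1 ABCC1. The groups did not overlap in RNA1 and RNA2 and overlapped in RNA3. Per exon length, this background came to a median of 8.78% of a member's level in RNA2 Puro and 22.5% in RNA3 Puro, with up to 33.7% for ZNF408 in RNA2 and 80.4% for AMER1 in RNA3. The median share was lower in ABCC1 cells, at 2.62% in RNA2 and 9.98% in RNA3. After it was subtracted, 42 of the 43 members still met the rule and P2RY11 did not, among 104 genes that did. P2RY11 missed on the floor of 5 CPM and not on its ratios, which were 0.81, 0.97 and 1.56 after subtraction. Subtraction moved the RNA3 ratio of EPDR1 from 0.63 to 1.28, of VIP from 0.71 to 1.13, of CHST11 from 0.65 to 1.02, of ZNF408 from 0.58 to 1.17, of P2RY11 from 0.79 to 1.56 and of GNB3 from 1.26 to 2.03. It moved the RNA2 ratio of HEY1 from 0.64 to 0.97 and of ZNF408 from 0.71 to 1.11.

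The 12 adrenergic markers summed to between 14061 and 15019 CPM in RNA1 Puro and between 12033 and 13224 CPM in RNA1 ABCC1, without overlap, while the groups overlapped in RNA2 and RNA3. Markers of other cell types were also summed. The 10 mesenchymal or fibroblast markers came to between 223 and 228 CPM in RNA1 Puro and between 297 and 306 CPM in RNA1 ABCC1, with COL1A2 at 0 in the latter. They were between 136 and 172 CPM against 113 and 143 CPM in RNA2 and between 203 and 221 CPM against 168 and 198 CPM in RNA3, where the sum was higher in Puro cells. Schwann or glial, immune and epithelial markers each summed to under 4 CPM in RNA1, with CD3E at 0 in RNA1 ABCC1, and to between 1.35 and 51.1 CPM in RNA2 and RNA3, where background reads were present. Their part in the members' values was not tested.

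Relatives of the example genes were counted in lists of their families and pathways. These lists were drawn up with earlier results of the data known. Of all genes tested by edgeR, 17.9% were called higher and 19.7% lower in RNA1, 1.25% and 0.458% in RNA2, and 2.03% and 0.767% in RNA3. Most genes tested in RNA2 and RNA3 were not floor genes, so these shares are no close match to the lists. In the fit of the 12635 floor genes alone, 180 were called higher in RNA2 and 1425 in RNA3. The calls of CLP1, ALKBH2, CHST11 and KCTD12 follow from the choice of the members and are included in the counts. ZBTB24 was an example gene too, known from these same contrasts, so its calls are not separate from the choice either. No list gene was called lower in RNA2 or RNA3. Of 25 genes of tRNA splicing and pre-mRNA 3′ end formation, 6 rose and 3 fell in RNA1, shares near those of all genes, and 2 rose in RNA2 and 3 in RNA3. Beside CLP1, CSTF1, a subunit of the cleavage stimulation factor, was called higher in all 3. CSTF1 had a log2FC of 0.31 (adjusted p = 0.000904 by edgeR), 0.59 (0.0498) and 0.98 (2.66e-05), and its RNA2 call was lost in 9 of 12 other settings. Of 9 AlkB family genes, 5, 3 and 3 rose and 0 fell in RNA1, RNA2 and RNA3. Beside ALKBH2, the tRNA methyltransferase ALKBH8 was called higher in each experiment, at 0.29, 0.75 and 0.61. Of 22 genes of chondroitin sulfate synthesis, 18 were tested in RNA1, where 5 rose and 4 fell, and 1 rose in RNA2 and 5 in RNA3. Of 21 KCTD genes, 18 were tested in RNA1, where 4 rose and 3 fell, and 2 rose in RNA2 and 2 in RNA3. The 2 genes were KCTD12 and KCTD1, and the RNA2 call of KCTD1 was lost in 6 of 12 other settings. Among the 5 genes of the GABA-B receptor complex and its KCTD partners, 4 were tested in RNA1, where KCTD12 rose and 2 fell, and KCTD12 was the 1 gene called in RNA2 and in RNA3. Of 41 ZBTB genes, 39 were tested in RNA1, where 14 rose and 6 fell, and 4 rose in RNA2 and 6 in RNA3. ZBTB24, ZBTB5 and ZBTB9 rose in all 3, the RNA2 calls of ZBTB5 and ZBTB9 being lost in 9 and 7 of 12 other settings. Of 4 genes of the ICF syndrome, ZBTB24 rose in each experiment and 2 others fell in RNA1. The median log2FC of a list ran from -0.32 to 0.19 in RNA1, from -0.15 to 0.55 in RNA2 and from -0.48 to 0.50 in RNA3, beside medians over floor genes of 0.00, 0.19 and 0.06 in the same fits.

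How the members stood in control cells was compared between RNA3 Puro and RNA2 Puro, a contrast that the rule did not take. The same libraries set the denominators of the ratios, so the comparison is not wholly separate from the choice, and experiment, culture and sequencing run cannot be told apart in it. By edgeR at an adjusted p of at most 0.05, 26 members were lower in RNA3 Puro and 0 were higher, where 13.6% of 37283 genes were lower and 5.77% were higher. At an unadjusted p under 0.05, 30 members passed in all, a count with no share over all genes beside it. DESeq2 called 28 members lower and 0 higher, where 5795 of the 6965 genes it called were lower. The fit put the median of the floor genes at -0.32 and of the members at -0.60. Fitted on the 12635 floor genes alone, those medians moved to 0.05 and -0.24, 11 members were lower and 4 (HEY1, ACTMAP, SH3PXD2A and CRABP2) were higher, against 24.2% and 23.3% of genes. The members lower in both fits were ZNF181, VIP, EIF5, EFNB1, ZNHIT2, KCTD12, RBM15, CDH24, ALKBH2, NRG2 and UTP25, and all of these but UTP25 were lower in each of 13 settings. The count of 26 fell to 11 without RNA3 Puro replicate 1, to 15 without RNA3 Puro replicate 3 and to 17 without RNA2 Puro replicate 2. All genes called lower fell in the same fits, from 5066 to 3609, 3713 and 4299.

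ZNF181, a zinc finger gene of chromosome 19, and VIP differed most. ZNF181 stood at 56.8, 44.4 and 58.0 CPM in RNA2 Puro and at 16.9, 15 and 18.9 CPM in RNA3 Puro, with a log2FC of -2.38 (adjusted p = 5.47e-10, edgeR), or -2.00 in the protein-coding fit. VIP had -2.14 (adjusted p = 7.17e-09, edgeR), or -1.77. The ABCC1 cells showed the same order for both, with ZNF181 at 75.7 ± 5.71 CPM in RNA2 and 29.5 ± 5.66 CPM in RNA3, and VIP at 37.2 ± 10.1 and 10.8 ± 1.03 CPM. EIF5 had a log2FC of -1.25 (adjusted p = 0.000105, edgeR), or -0.90, and KCTD12 had -1.08 (adjusted p = 0.000185, edgeR), or -0.72. For ZNF181 and VIP, the RNA2 and RNA3 libraries did not overlap in either line.

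**Figure D4:**
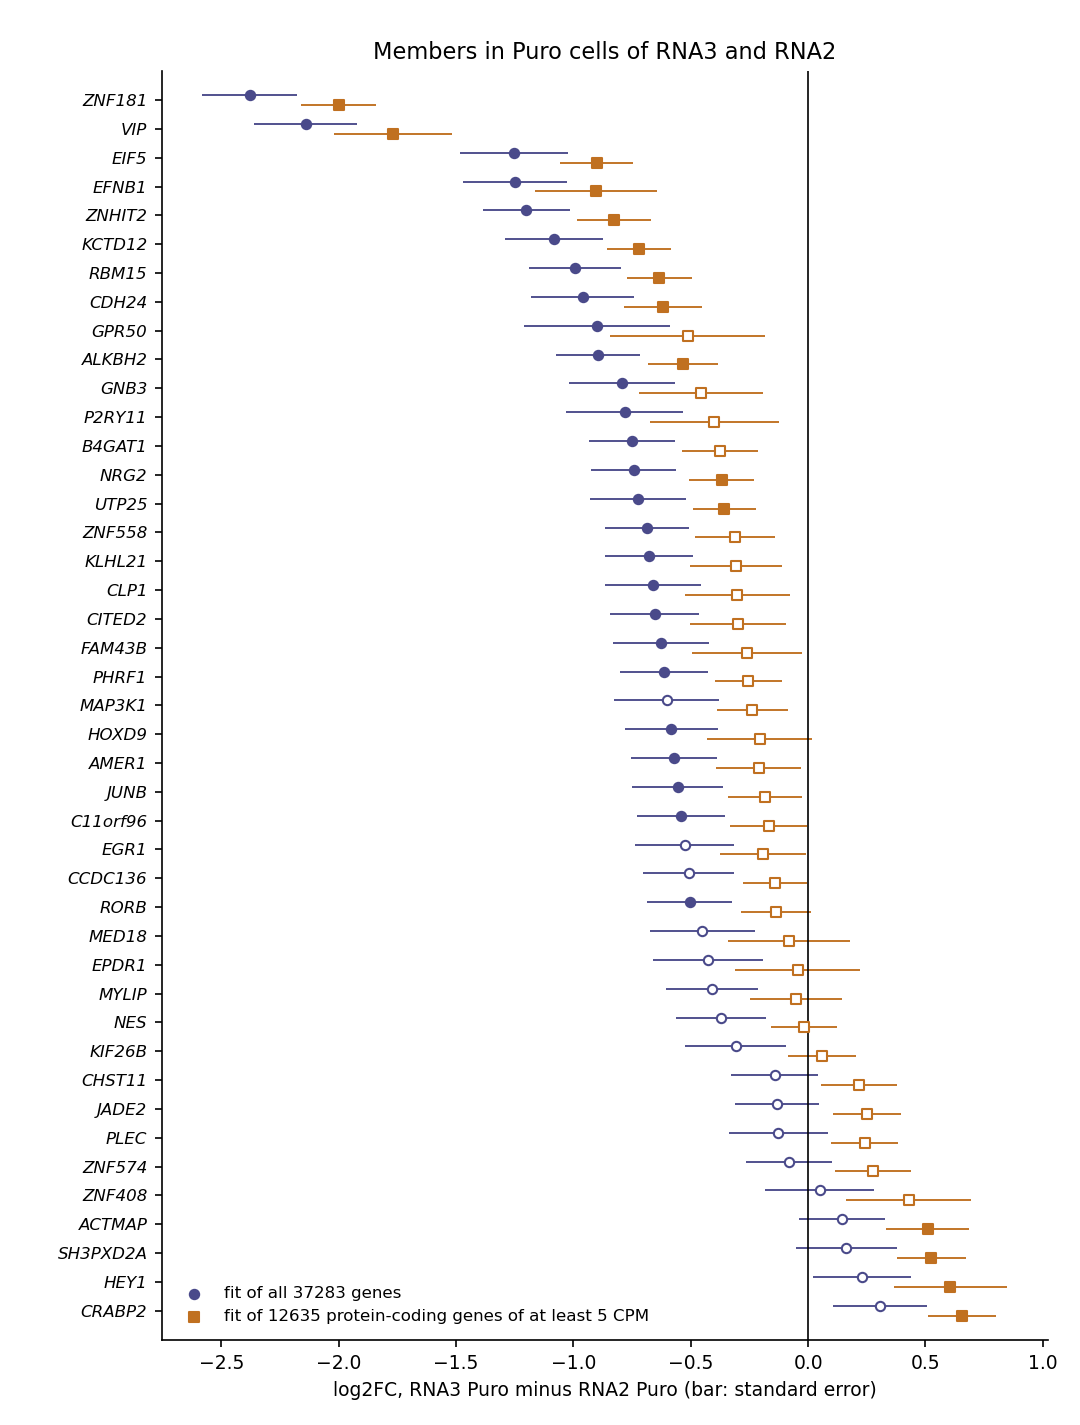
Log2FC of each of the 43 members in RNA3 Puro minus RNA2 Puro (horizontal axis, bars are standard errors), in the fit of all genes (circles) and in the fit of protein-coding genes of at least 5 CPM (squares). Filled symbols have an adjusted p of at most 0.05, and ZNF181 and VIP stand farthest to the left, at -2.38 and -2.14 in the fit of all genes.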

How the data were processed

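RNA-seq libraries were made with the TruSeq RNA Library Prep Kit v2 in RNA1, as the paper and a sample label name it (another label names the SMARTer total RNA kit), and with the SMARTer kit in RNA2 and RNA3. The authors aligned reads with STAR 2.7.3a on GRCh37, counted read pairs on exons with featureCounts (Subread 2.0.0) without strand, and deposited raw counts per gene; base calling used bcl2fastq 2.18. Of 57905 Ensembl rows, 52338 matched a symbol and type. Members and lists were chosen with earlier results of these data known.

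CPM were computed over Ensembl rows. Each comparison was fitted over the whole table with edgeR 4.0.16 (R 4.3.3), filterByExpr at a minimum count of 10, TMM and the two-sided robust quasi-likelihood test, with Benjamini-Hochberg adjustment. Exact permutation of 3 against 3 libraries cannot give p below 0.1. Genes described with values were the 25 members with the highest lowest ratio, CLP1 and ALKBH2, and the 3 nearest the threshold. Alternatives were DESeq2 1.42.0, RLE factors, other filters, a replicate block, each library left out and, added after seeing the data, protein-coding genes alone and background subtraction. On simulated 2-fold changes, the test recovered 99% of 200 genes among 16710 in RNA1, 82.5% among 31475 in RNA2, 83.5% among 34719 in RNA3 and 74% among 34057 in RNA3 against RNA2 Puro. False calls numbered 23, 6, 7 and 5. A log2 ratio of at least 1 was reached by 4 members in RNA1, 2 in RNA2 and 8 in RNA3, so the recovery does not describe changes as small as most of theirs. Libraries of a group differed by a chi-square of 1.53 to 25.8 per degree of freedom, so none was counted as a duplicate.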

Additional observations from a re-analysis of the deposited data

How the results depend on the processing

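The number of genes meeting the rule was 43. It was 153 on TMM-scaled library sizes and 104 after background subtraction, chosen after seeing the data, with all 43 members kept under the first. It ran from 27 to 51 without each library, and other settings gave 40 to 47. The 47 genes on medians of the 3 libraries held 31 of the 43 members, and CHST11 was among the 12 lost. Genes called between the lines in RNA2 numbered 581, of which 425 were higher. They were 2727 and 2264 with DESeq2, 1086 and 784 with RLE factors, 1402 and 896 without the filter, and the higher genes were 180 among protein-coding genes alone. Leaving out each RNA2 library gave 5 to 1258 genes, 3 to 507 higher genes and 1 to 43 members. In RNA3, 1021 genes were called and 741 were higher. They were 1549 and 1380 with DESeq2, 1726 and 1378 with at least 10 counts in every library, and 2306 and 1425 among protein-coding genes. Without each RNA3 library they were 393 to 2770 and 279 to 2344, with 29 to 43 members. RNA1 counts stayed within 1.5 times of 6382 genes in each setting, from 4663 to 7819 without each library.

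For RNA3 Puro against RNA2 Puro, 7217 genes were called. Protein-coding genes alone gave 3062 lower genes in place of 5066, 11 members lower and 4 higher. Leaving out each library gave 4329 to 10160 genes and 11 to 28 members lower. Reversed log2FC, none past the threshold, were -0.0456 for ZNF408 with DESeq2 and -0.0458 with RLE factors, and 0.0140 for ZNF574 with at least 10 counts in every library. Without each library, log2FC ran from -0.294 to 0.00225 for CHST11, from -0.243 to 0.00649 for ZNF574, from -0.0455 to 0.120 for ZNF408 and from -0.00325 to 0.269 for ACTMAP. Among protein-coding genes alone KIF26B gave 0.0596, PLEC 0.241, CHST11 0.216, ZNF574 0.277 and JADE2 0.249. The cause of these changes was not tested.

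With the replicate number as a block, RNA3 gave 1885 genes, 1345 of them higher, and all 43 members, and RNA2 gave 703 genes and 41 members. The pairing of libraries by number did not hold, as the deviations of same-numbered libraries correlated at means of -0.04, -0.06, 0.04 and 0.06 in RNA1, RNA2, RNA3 and the Puro comparison. The block moved no other count by over 1.5 times. Depth was lowest in RNA3, and the smallest count of any member was 26, for GPR50.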
